A study of Mus musculus with 18 samples.

Results

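Antibody V segments were measured in whole spleen of mice that carry an extra copy of part of chromosome 16 and of their wild-type controls. All genes that the deposited count table types as immunoglobulin V genes and that had at least 10 counts in at least 6 of the 18 libraries were taken, which gave 198 of 218 such genes, out of 55385 genes in the table. By gene name, 97 were heavy chain (Ighv), 97 kappa (Igkv) and 3 lambda (Iglv). The remaining member, Gm43218 (chr6:70240427-70240972 on GRCm38, minus strand), has no chain in its name and entered no usage share. The 20 V genes below the rule were 16 heavy, 3 kappa and 1 without a chain name, and the nearest of them were Ighv8-4 with 346 counts over all libraries and Ighv1-62-3 with 243.

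Poly(A) RNA came from spleens of 6 mice of each of 3 genotypes, 3 male and 3 female, with no treatment. The groups were wild-type C57BL/6J (WT), Dp16, and Dp16_2xIFNRs. Dp16 mice carry a duplication on 1 chromosome 16 of the interval that matches much of human chromosome 21. Dp16_2xIFNRs mice carry the same duplication with the interferon receptor gene cluster back at the normal copy number. Every cell of a Dp16 animal carries the duplication, so B cells and all other spleen cells share it. An age between 17.1 and 18.0 is labelled as days post conception although the mice are called adult, so this unit was not interpreted. Library totals ran from 33998427 to 53021480 counts, at which 3 counts, the limit that a count of 0 allows, equal 0.0566 to 0.0882 CPM (counts scaled to the library total).

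A V segment is the germline piece that encodes most of the variable domain of an antibody chain. In each developing B cell 1 heavy V segment is joined to a D and a J segment, and 1 kappa or lambda V segment to a J segment. A B cell clone therefore expresses a single pair of rearranged V genes, and plasma cells transcribe theirs at far higher rates than naive B cells. The V reads of a bulk spleen library add up both how many clones use a segment and how much RNA each clone makes, and fewer cells and less RNA per cell cannot be told apart in these data.

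The heavy members lie on chromosome 12 between 113578504 and 116000461 (GRCm38, GENCODE vM21), all on the minus strand. Kappa members lie on chromosome 6 between 67555497 and 70704177, 37 on the plus and 60 on the minus strand. The 3 lambda members lie on chromosome 16 between 19085017 and 19260859. Lying on chromosome 16 does not by itself place them in the duplicated interval, whose borders were not used here. The segments printed here are a selection, with the reason given for each. Each line is the last 180 coding bases, 5′ to 3′ on the coding strand, from GENCODE vM21 transcripts on GRCm38. Capitals run from the conserved cysteine codon to the germline end of the coding sequence, the stretch that joins to the D or J segment. Each of these genes has 2 exons, a leader exon and the V exon. Ighv14-4 (chr12:114176438-114176867, minus strand), Igkv8-21 (chr6:70314895-70315472, minus strand), Ighv1-9 (chr12:114583569-114584002, minus strand), Igkv19-93 (chr6:68736297-68736780, minus strand) and Igkv5-39 (chr6:69900424-69900977, minus strand) are shown because each led its chain with a large share in at least 1 library.
Ighv14-4: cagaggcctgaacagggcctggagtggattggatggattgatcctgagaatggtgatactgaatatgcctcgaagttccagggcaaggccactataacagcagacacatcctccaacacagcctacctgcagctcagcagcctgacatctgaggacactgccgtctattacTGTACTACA
Igkv8-21: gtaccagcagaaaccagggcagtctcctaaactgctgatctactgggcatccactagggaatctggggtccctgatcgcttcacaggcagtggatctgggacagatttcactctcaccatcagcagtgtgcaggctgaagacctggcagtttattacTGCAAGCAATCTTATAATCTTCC
Ighv1-9: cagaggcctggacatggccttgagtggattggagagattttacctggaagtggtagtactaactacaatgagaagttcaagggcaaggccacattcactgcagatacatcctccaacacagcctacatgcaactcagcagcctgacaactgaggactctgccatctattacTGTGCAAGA
Igkv19-93: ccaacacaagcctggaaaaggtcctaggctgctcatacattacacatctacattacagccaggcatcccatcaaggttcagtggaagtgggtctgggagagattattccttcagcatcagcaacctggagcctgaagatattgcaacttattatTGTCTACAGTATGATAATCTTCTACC
Igkv5-39: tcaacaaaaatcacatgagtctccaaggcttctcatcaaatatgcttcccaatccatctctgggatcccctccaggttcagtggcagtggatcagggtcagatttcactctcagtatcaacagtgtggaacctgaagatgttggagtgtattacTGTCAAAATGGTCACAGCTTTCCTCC

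Iglv1 (chr16:19085017-19085500, minus strand) and Iglv2 (chr16:19260401-19260859, minus strand) are shown because they carried most lambda reads and are close copies.
Iglv1: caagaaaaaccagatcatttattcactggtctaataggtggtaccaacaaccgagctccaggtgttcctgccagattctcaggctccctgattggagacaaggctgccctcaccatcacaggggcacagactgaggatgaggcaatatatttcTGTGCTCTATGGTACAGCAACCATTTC
Iglv2: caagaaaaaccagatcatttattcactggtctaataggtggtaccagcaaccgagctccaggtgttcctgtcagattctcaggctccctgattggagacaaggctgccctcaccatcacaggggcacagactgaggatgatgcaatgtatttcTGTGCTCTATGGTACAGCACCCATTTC
Their coding sequences were 96.9% identical over their length, with 11 differing bases, while Iglv1 and Iglv3 were 57.6% identical.

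Igkv4-57-1 (chr6:69544359-69544907, minus strand), Igkv4-70 (chr6:69267888-69268443, minus strand) and Ighv1-61 (chr12:115359140-115359572, minus strand) passed the test in both comparisons with WT. Ighv3-1, Ighv9-3 and Igkv12-38 also passed in both and are not printed. Ighv1-52 (chr12:115145487-115145919, minus strand) is printed below Ighv1-61 as its nearest copy.
Igkv4-57-1: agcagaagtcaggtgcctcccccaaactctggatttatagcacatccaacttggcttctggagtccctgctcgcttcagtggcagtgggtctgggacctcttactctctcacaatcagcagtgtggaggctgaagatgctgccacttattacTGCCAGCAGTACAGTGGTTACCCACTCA
Igkv4-70: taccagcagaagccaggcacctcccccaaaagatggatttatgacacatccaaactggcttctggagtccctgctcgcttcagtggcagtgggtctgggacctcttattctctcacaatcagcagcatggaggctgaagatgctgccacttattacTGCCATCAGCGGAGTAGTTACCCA
Ighv1-61: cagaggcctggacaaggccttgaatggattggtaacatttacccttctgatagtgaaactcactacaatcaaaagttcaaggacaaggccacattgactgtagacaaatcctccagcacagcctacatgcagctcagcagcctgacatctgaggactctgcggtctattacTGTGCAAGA
Ighv1-52: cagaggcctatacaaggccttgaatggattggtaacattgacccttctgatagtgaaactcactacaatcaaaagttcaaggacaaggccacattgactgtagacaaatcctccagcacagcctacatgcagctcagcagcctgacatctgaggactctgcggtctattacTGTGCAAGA
Igkv4-57-1 and Igkv4-70 belong to the same family and were 88.5% identical, with 41 differing bases. Ighv1-61 and Ighv1-52 were 98.6% identical, with 5 differing bases. Across the members, the identity to the nearest other V segment had a median of 94.9%. It was 95% or more for 97 members and 99% or more for 3, and no member had an identical copy. How reads that match several segments were counted is not given in the sources used here, so values of close copies are uncertain.

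Between 95 and 97 of the 97 heavy members and between 95 and 97 of the 97 kappa members had reads in each library, which the count rule for members largely fixes. The Ighv1 family was the largest, with 48 heavy members, and Igkv4 led kappa with 26. Usage is given as the share of a segment in the summed RPKM (reads scaled by gene length and library total) of its chain, so that gene length is taken into account. The heavy segments with the highest mean usage over the 18 libraries were Ighv1-26 at 5.32%, Ighv1-9 at 5.00%, Ighv3-6 at 4.92%, Ighv9-3 at 4.13% and Ighv1-53 at 3.79%. Among kappa segments, Igkv5-39 led with 8.82%, followed by Igkv19-93 at 5.14%, Igkv4-59 at 4.29% and then Igkv1-110 and Igkv3-4. Iglv1 had the highest lambda share in 18 of 18 libraries, from 48.3% to 78.9%. Iglv2 held 12.2% to 47.1% of lambda and Iglv3 4.58% to 22.1%.

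Segments differed between animals of the same genotype far more than other genes did. The SD of log2 CPM within a genotype had a median of 0.86 over the members, against 0.28 over all 18634 genes tested and 0.23 over 6310 other genes at similar levels. Heavy and kappa members had the same median, 0.86, while the 3 lambda members had 0.56. No single segment led everywhere. Heavy leaders included Ighv5-6 in WT replicate 1, Ighv1-18 in Dp16 replicate 1, and Ighv9-3 in Dp16 replicates 5 and 6. Igkv5-39 led kappa in 4 WT libraries, 1 Dp16 library and 1 Dp16_2xIFNRs library.

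**Figure D1:**
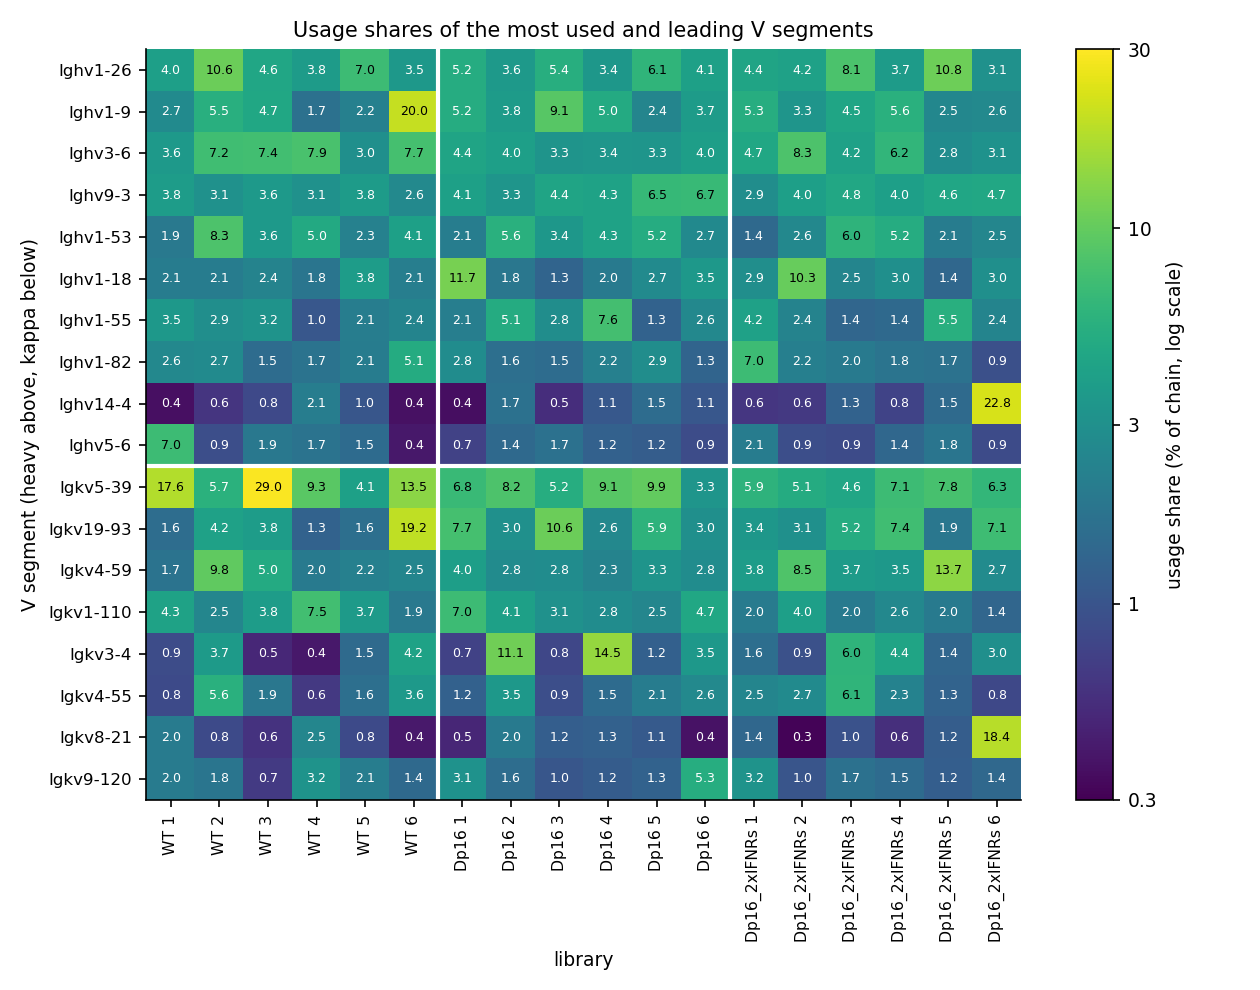
Usage share (% of the chain's summed RPKM, colour on a log scale, values printed in the cells) of the most used and the leading heavy (upper rows) and kappa (lower rows) segments in each of the 18 libraries. Single bright cells mark segments high in 1 library, such as Ighv14-4 at 22.8% and Igkv8-21 at 18.4% in Dp16_2xIFNRs replicate 6.

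Single libraries carried very large shares of 1 segment. In Dp16_2xIFNRs replicate 6, Ighv14-4 made up 22.8% of heavy V expression (662 CPM) against a median of 0.823% in the other 17 libraries, 27.7 times as much. In the same library Igkv8-21 made up 18.4% of kappa V expression against a median of 0.952%, 19.3 times as much. This animal thus had its leading heavy and its leading kappa segment raised side by side, and it also had 3147 CPM of Ighg1, the IgG1 constant gene, against 135 to 790 in the other 5 of its genotype. Ighe, the IgE constant gene, was at 41.9 CPM there against 0.587 to 2.04. In WT replicate 6, Ighv1-9 made up 20.02% of heavy expression (median of the others 3.77%) and Igkv19-93 made up 19.2% of kappa expression (3.41%). This animal too had both chains led by a single segment. Bulk libraries do not link a heavy to a kappa chain, so whether such pairs come from the same cells was not tested.

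Other single-library rises were smaller or involved 1 chain. Igkv3-4 reached 14.5% in Dp16 replicate 4 and 11.1% in Dp16 replicate 2, against a median of 1.47% in the libraries other than Dp16 replicate 4. Ighv5-6 reached 7.05% in WT replicate 1, Ighv10-1 5.45% in Dp16_2xIFNRs replicate 3 and Ighv4-1 5.18% in Dp16_2xIFNRs replicate 6. These were all the segments with at least 5% of their chain in a library and at least 5 times the median of the other libraries. Igkv5-39 was broader, at 4.13% to 29.0% (median 11.4%) in WT, 3.30% to 9.95% (7.53%) in Dp16 and 4.62% to 7.80% (6.13%) in Dp16_2xIFNRs. Its 3 highest values were all WT: 29.0% in replicate 3, 17.6% in replicate 1 and 13.5% in replicate 6. The ranges overlapped and Igkv5-39 did not pass the test in either comparison with WT.

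No difference between genotypes in the diversity of heavy segments passed a test. The effective number of segments, the exponential of the Shannon entropy of the shares, is the number of equally used segments that would give the same diversity. For heavy chains it was 35.1 to 55.5 (median 52.1) in WT, 45.4 to 55.0 (52.1) in Dp16 and 35.1 to 52.2 (48.9) in Dp16_2xIFNRs. The ranges overlapped, with 1 low library in WT (replicate 6) and 1 in Dp16_2xIFNRs (replicate 6). Means were 48.6 ± 8.06, 51.6 ± 3.59 and 47.1 ± 6.09 (SD, n = 6). Dp16 differed from WT by 3.01 segments (95% interval -4.36 to 10.8; two-sided exact permutation p = 0.448). Dp16_2xIFNRs differed from WT by -1.42 (-10.6 to 7.27; exact permutation p = 0.727) and from Dp16 by -4.43 (-11.1 to 1.26; exact permutation p = 0.143). After Benjamini-Hochberg adjustment over the 24 comparisons of 8 usage measures, no exact permutation p was below 0.779.

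Kappa diversity was spread most widely in WT. Its effective number was 29.7 to 58.1 (median 45.5) in WT, 42.2 to 57.7 (47.2) in Dp16 and 37.6 to 50.4 (48.6) in Dp16_2xIFNRs. WT held both the lowest and the highest library, so all ranges overlapped. Means were 43.4 ± 10.8, 48.2 ± 5.16 and 45.9 ± 5.33 (SD, n = 6). The differences were 4.77 for Dp16 against WT (-6.17 to 15.5; exact permutation p = 0.361), 2.49 for Dp16_2xIFNRs against WT (-8.74 to 13.2; exact permutation p = 0.619) and -2.28 for Dp16_2xIFNRs against Dp16 (-8.95 to 4.22; exact permutation p = 0.504). Without WT replicates 3 and 6 and Dp16_2xIFNRs replicate 6, in each of which 1 segment held over 20% of a chain, the kappa differences from WT turned to -1.47 and -2.09.

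**Figure D2:**
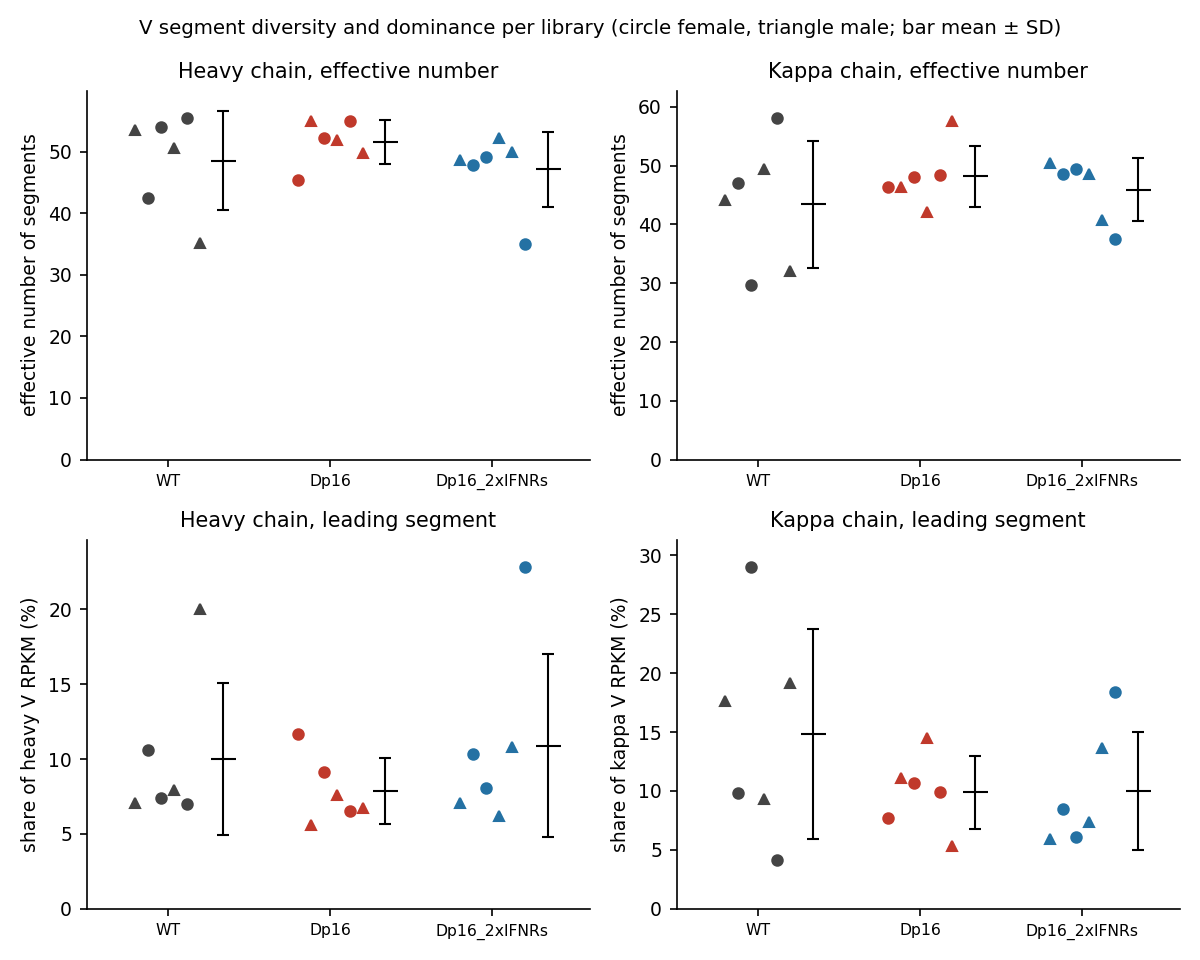
Effective number of segments (upper panels) and share of the leading segment in % of chain RPKM (lower panels) for heavy and kappa chains, 1 point per library, circles female and triangles male, bars mean ± SD over 6 libraries. The genotypes overlap in all 4 panels, and the highest leading shares are 22.8% for heavy in Dp16_2xIFNRs and 29.0% for kappa in WT.

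Differences in the share of the leading segment did not pass a test either. The leading heavy segment held 10.0% ± 5.09 in WT, 7.88% ± 2.22 in Dp16 and 10.9% ± 6.12 in Dp16_2xIFNRs (SD, n = 6). The leading kappa segment held 14.8% ± 8.92, 9.87% ± 3.12 and 9.98% ± 5.01. The kappa differences from WT were -4.98 percentage points in Dp16 (-13.9 to 3.56; exact permutation p = 0.236) and -4.86 in Dp16_2xIFNRs (-14.2 to 4.35; exact permutation p = 0.268). The 5 leading segments together held 29.7%, 26.7% and 30.003% of heavy and 33.6%, 29.6% and 31.0% of kappa expression in WT, Dp16 and Dp16_2xIFNRs. The intervals leave room for differences of several percentage points in either direction.

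Differences in the lambda share and in the Ighv1 family share did not pass a test either. Lambda segments made up 6.09% ± 2.66 of light chain V expression in WT, 4.94% ± 1.80 in Dp16 and 4.55% ± 0.953 in Dp16_2xIFNRs (SD, n = 6). The differences from WT were -1.14 percentage points (-4.09 to 1.79; exact permutation p = 0.392) and -1.54 (-4.27 to 0.997; exact permutation p = 0.242). Ighv1 held 55.2% ± 6.95, 58.7% ± 2.87 and 54.6% ± 6.14 of heavy expression. Its differences from WT were 3.51 percentage points (-3.38 to 10.4; exact permutation p = 0.301) and -0.60 (-9.07 to 7.98; exact permutation p = 0.879). The Igkv4 family held 13.4% to 25.2% of kappa expression in WT, 15.9% to 23.0% in Dp16 and 16.9% to 26.3% in Dp16_2xIFNRs, given without a test. The 57 heavy members nearest to the D segments (below the midpoint of the starts) held 61.0% to 66.8%, 54.5% to 63.3% and 57.3% to 72.2%, also without a test.

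Whole usage profiles of animals of the same genotype were about as far apart as those of different genotypes. The Bray-Curtis distance (0 for identical shares, 1 for no shared segment) had a median of 0.283 over 45 heavy pairs within genotypes and 0.292 over 108 pairs between them. For kappa the medians were 0.318 and 0.324. Dp16_2xIFNRs replicate 6 stood farthest out for heavy chains, at a median of 0.368 to the other libraries, and was at 0.369 for kappa, while WT replicate 6 was at 0.338 and 0.382. The closest heavy pair, at 0.2002, was Dp16 replicate 1 and Dp16_2xIFNRs replicate 2, both led by Ighv1-18 (11.7% and 10.3%). These libraries share a code in their sample descriptions, whose meaning is not given. The 7 pairs of different genotypes that share a code had a median heavy distance of 0.274, against 0.289 for the other 146 pairs, and 0.322 against 0.322 for kappa.

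The comparison of Dp16 with WT asks which segments differ in level when the interval is duplicated. In the edgeR fit over all genes, 13 of 198 members rose (6.57%) and 2 fell (1.01%), where 16.6% of the 18634 genes tested rose and 13.2% fell. Both shares of members were below those of all genes. Their median log2 fold change was 0.33, against -0.01 over all genes, and 130 of 198 were positive. By chain, 6 heavy and 7 kappa segments rose, 2 heavy segments fell and no lambda segment passed. The segments that rose were Ighv1-43, Ighv1-5, Ighv2-4, Ighv3-1, Ighv8-8, Ighv9-3, Igkv12-38, Igkv14-100, Igkv4-53, Igkv4-57-1, Igkv4-61, Igkv4-70 and Igkv8-24, and Ighv1-61 and Ighv8-5 fell. The number that rose was 4 without WT replicate 1 or WT replicate 4, 7 without Dp16 replicate 5 and 5 without Dp16 replicate 6. The number that fell was 4 without WT replicate 3 and 1 without WT replicate 5, Dp16 replicate 3 or Dp16 replicate 5. Without the 3 libraries in which 1 segment held over 20% of a chain, 10 rose and 3 fell. With the shared description codes as a block, 7 rose and 1 fell, and all 8 segments described here for this comparison missed the threshold (edgeR adjusted p of 0.0558 to 0.629). Counts over all genes under this block are not set beside these, so the loss is not read as particular to V segments. Only 5 codes were shared by 2 or more libraries, and a library with a code of its own adds nothing to these contrasts. The block thus leaves few libraries, so a call kept or lost under it is not read as an effect of the codes.

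In Dp16_2xIFNRs against WT, 19 members rose (9.60%) and 2 fell (1.01%), where 17.3% of all genes rose and 14.2% fell. The median log2 fold change of the members was 0.42, against -0.01 over all genes, and 150 of 198 were positive. By chain, 9 heavy and 10 kappa segments rose and 1 of each fell. The segments that rose were Ighv1-39, Ighv1-4, Ighv1-50, Ighv14-3, Ighv15-2, Ighv2-2, Ighv2-9-1, Ighv3-1, Ighv9-3, Igkv12-38, Igkv14-111, Igkv20-101-2, Igkv3-1, Igkv4-57-1, Igkv4-70, Igkv4-72, Igkv6-14, Igkv6-23 and Igkv8-27. Ighv1-61 and Igkv4-86 fell. The number that rose was 12 without WT replicate 1 or Dp16_2xIFNRs replicate 3. Without the 3 libraries led by 1 segment, 15 rose and 1 fell. With the description codes as a block, 4 of the 9 segments described here for this comparison kept their call and 5 lost it. The number that fell was 1 without WT replicate 2, WT replicate 6, or Dp16_2xIFNRs replicate 3, 4 or 5. Of the 26 Igkv4 segments, 4 rose in Dp16 and 3 rose and 1 fell in Dp16_2xIFNRs. Both comparisons use the same 6 WT libraries, so a segment called in both is not 2 independent results.

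Between the duplicated genotypes no segment passed the edgeR test. Of all genes, 0.0% rose and 0.0215% fell in Dp16_2xIFNRs against Dp16. The count of members was 0 in each direction, also by DESeq2 and by limma on log2 RPKM. An unadjusted edgeR p below 0.05 was held by 14 of 198 members and by 438 of the 18634 genes tested. The median log2 fold change of the members was 0.17, against 0.001 over all genes, and 121 members were positive.

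**Figure D3:**
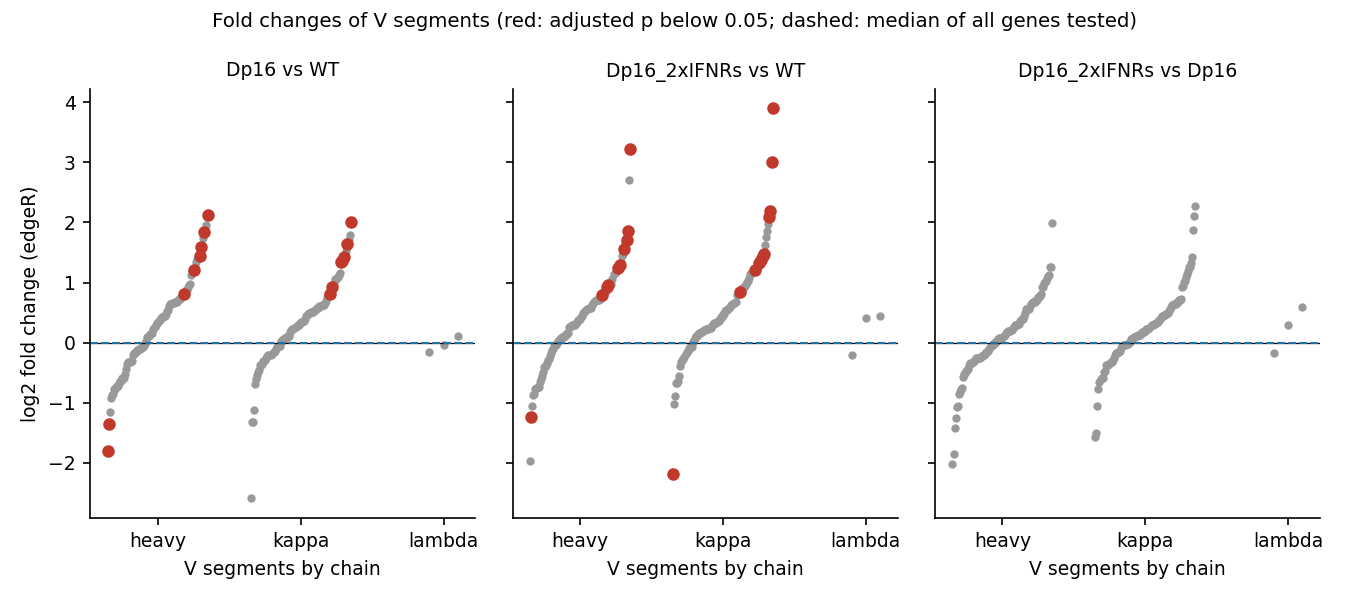
Log2 fold changes from the edgeR fit for the heavy, kappa and lambda segments in the 3 comparisons, sorted within each chain, red where the adjusted p was below 0.05, with the median of all genes as a dashed line. Red points number 15, 21 and 0 from left to right, and most grey points of the left and middle panels lie above the dashed line.

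Igkv4-57-1 had the smallest adjusted p of the segments that rose, in both comparisons with WT. It was at 7.76 to 30.3 CPM (median 13.5) in WT, 39.0 to 81.9 (62.1) in Dp16 and 40.3 to 203 (131) in Dp16_2xIFNRs. Every library of both duplicated genotypes was above every WT library. The log2 difference was 2.00 ± 0.47 (SE; 4.00-fold, edgeR adjusted p = 0.00510) in Dp16 and 3.01 ± 0.49 (8.08-fold, adjusted p = 0.000386) in Dp16_2xIFNRs. Dp16_2xIFNRs against Dp16 gave 1.01 ± 0.45, which did not pass (adjusted p = 1.0). With the code block the adjusted p was 0.115 in Dp16 and 0.0385 in Dp16_2xIFNRs. Its family member Igkv4-70 was at 5.79 to 54.7 CPM (13.1) in WT, 21.4 to 111 (44.3) in Dp16 and 20.3 to 171 (80.4) in Dp16_2xIFNRs. The ranges overlapped through WT replicate 2, at 54.7. The log2 differences were 1.64 ± 0.44 (edgeR adjusted p = 0.0108) and 2.19 ± 0.44 (adjusted p = 0.00172), and with the code block the adjusted p was 0.354 and 0.0764.

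Igkv6-23 and Igkv14-111 rose in Dp16_2xIFNRs and did not pass in Dp16, and their difference between the duplicated genotypes did not pass. Igkv6-23 was at 61.9 to 121 CPM (median 77.6) in WT, 83.7 to 158 (98.2) in Dp16 and 97.7 to 257 (177) in Dp16_2xIFNRs. The Dp16_2xIFNRs and WT ranges overlapped between 97.7 and 121. The log2 difference from WT was 1.20 ± 0.22 (2.30-fold, edgeR adjusted p = 0.000783) in Dp16_2xIFNRs and 0.50 ± 0.22 (adjusted p = 0.107) in Dp16. Igkv6-23 passed under each alternative run, with a highest adjusted p of 0.0188. Igkv14-111 was at 54.8 to 110 CPM (69.1) in WT, 63.65 to 102 (74.0) in Dp16 and 90.4 to 175 (120.2) in Dp16_2xIFNRs. The lowest Dp16_2xIFNRs libraries lay within the WT range. The log2 difference was 0.84 ± 0.20 in Dp16_2xIFNRs (edgeR adjusted p = 0.00350, and 0.109 with the code block).

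Igkv20-101-2 was nearly absent from WT spleens. It was at 0.0426 to 0.569 CPM (median 0.142) in WT, 0.0419 to 2.12 (0.474) in Dp16 and 0.361 to 4.79 (2.92) in Dp16_2xIFNRs. The lowest WT and Dp16 libraries were below the level of 3 counts, so the fitted log2 difference of 3.90 ± 0.86 in Dp16_2xIFNRs (edgeR adjusted p = 0.00231) rests on few reads and is no bound. With the code block its adjusted p was 0.0894. Igkv20-101-2 reached 10 counts in 11 libraries, among them every Dp16_2xIFNRs library. The WT and Dp16 libraries alone would not have met the member rule, so its call is not read as support for a rise. Igkv12-38 was another low segment, at 1.17 to 6.02 CPM (1.73) in WT, 2.84 to 8.03 (5.64) in Dp16 and 2.71 to 9.085 (4.86) in Dp16_2xIFNRs. Only WT replicate 2, at 6.02, reached the range of the duplicated genotypes. The log2 differences were 1.36 ± 0.41 (edgeR adjusted p = 0.0186, 0.0558 with the code block) and 1.33 ± 0.42 (adjusted p = 0.0210). The call in Dp16_2xIFNRs was lost without WT replicate 1, WT replicate 6, or Dp16_2xIFNRs replicate 5 or 6, at adjusted p of 0.0538 to 0.0562. Without the 3 libraries led by 1 segment both Igkv12-38 calls were lost (adjusted p = 0.122 and 0.209), and without the 4 libraries in which Gm42418, a model lying over ribosomal RNA sequence, took over 4% of counts, the call in Dp16_2xIFNRs was lost (0.0776).

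Igkv4-61 and Igkv14-100 passed in Dp16, each with high libraries. Igkv4-61 was at 5.23 to 25.4 CPM (median 9.45) in WT, 12.0 to 71.6 (21.3) in Dp16 and 12.0 to 21.6 (17.3) in Dp16_2xIFNRs. Dp16 replicate 6, at 71.6, was the highest library. The log2 difference of 1.42 ± 0.41 (edgeR adjusted p = 0.0175) became 0.92 without that library (adjusted p = 0.0728). Igkv14-100 was at 9.04 to 18.8 CPM (13.8) in WT, 12.9 to 72.5 (20.5) in Dp16 and 16.2 to 40.2 (21.5) in Dp16_2xIFNRs. Dp16 replicates 5 and 6 were at 55.3 and 72.5, and the other 4 Dp16 libraries lay between 12.9 and 22.5. The log2 difference of 1.34 ± 0.41 (edgeR adjusted p = 0.0234) was lost without WT replicate 1, 4 or 6 or Dp16 replicate 5 or 6, with a highest adjusted p of 0.0761. It was also lost with a block for the sample numbers of the titles (adjusted p = 0.0792).

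Ighv9-3, among the 5 most used heavy segments, rose in both comparisons. It was at 51.1 to 109 CPM (median 74.7) in WT, 87.3 to 193 (107) in Dp16 and 71.5 to 149 (130.4) in Dp16_2xIFNRs. The ranges overlapped. The log2 differences were 0.80 ± 0.25 and 0.79 ± 0.25 (edgeR adjusted p = 0.0247 in each), and both calls were also lost without the 3 libraries led by 1 segment. The call in Dp16 was lost without WT replicate 1, 4 or 5 or Dp16 replicate 5 or 6, and the call in Dp16_2xIFNRs without WT replicate 1, 4 or 5 or Dp16_2xIFNRs replicate 3, 4 or 6. These adjusted p lay between 0.0522 and 0.0623. Its nearest copy, Ighv9-2, was 94.3% identical. With the code block the adjusted p was 0.171 in Dp16 and 0.00231 in Dp16_2xIFNRs.

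Of the 3 segments that fell, Ighv1-61 did so in both comparisons. It was at 3.61 to 21.2 CPM (median 4.90) in WT, 0.916 to 2.84 (1.84) in Dp16 and 0.952 to 4.79 (2.88) in Dp16_2xIFNRs. Every Dp16 library was below every WT library, while the Dp16_2xIFNRs range overlapped that of WT. It fell by 1.81 on the log2 scale in Dp16 (SE 0.43, edgeR adjusted p = 0.00381, 0.164 with the code block) and by 1.25 in Dp16_2xIFNRs (SE 0.42, adjusted p = 0.0306, 0.182 with the code block). The latter call was lost without WT replicate 2 or 6 or Dp16_2xIFNRs replicate 3, 4 or 5, and without WT replicate 6, the highest library, the difference was -0.71 (adjusted p = 0.101). The close copy Ighv1-52 held 0.397% to 1.084% of heavy expression in WT, 0.198% to 1.13% in Dp16 and 0.328% to 1.04% in Dp16_2xIFNRs.

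Igkv4-86 fell in Dp16_2xIFNRs. It was at 19.5 to 93.5 CPM (median 56.5) in WT, 12.4 to 46.7 (19.8) in Dp16 and 3.24 to 25.9 (8.54) in Dp16_2xIFNRs. Of the Dp16_2xIFNRs libraries, replicate 5 alone, at 25.9, reached the WT range. The log2 difference was -2.19 ± 0.42 in Dp16_2xIFNRs (edgeR adjusted p = 0.00125, 0.213 with the code block) and -1.12 ± 0.41 in Dp16 (adjusted p = 0.0518, not called). Ighv8-5 was at 2.87 to 23.8 CPM (7.33) in WT, 1.32 to 4.62 (3.02) in Dp16 and 1.95 to 10.3 (3.11) in Dp16_2xIFNRs. The ranges overlapped. It fell by 1.36 on the log2 scale in Dp16 (SE 0.48, edgeR adjusted p = 0.0438). The call was lost without WT replicate 4, 5 or 6 or any of Dp16 replicates 2 to 6, with adjusted p of 0.0632 to 0.107, and with the sample-number block (adjusted p = 0.119).

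**Figure D4:**
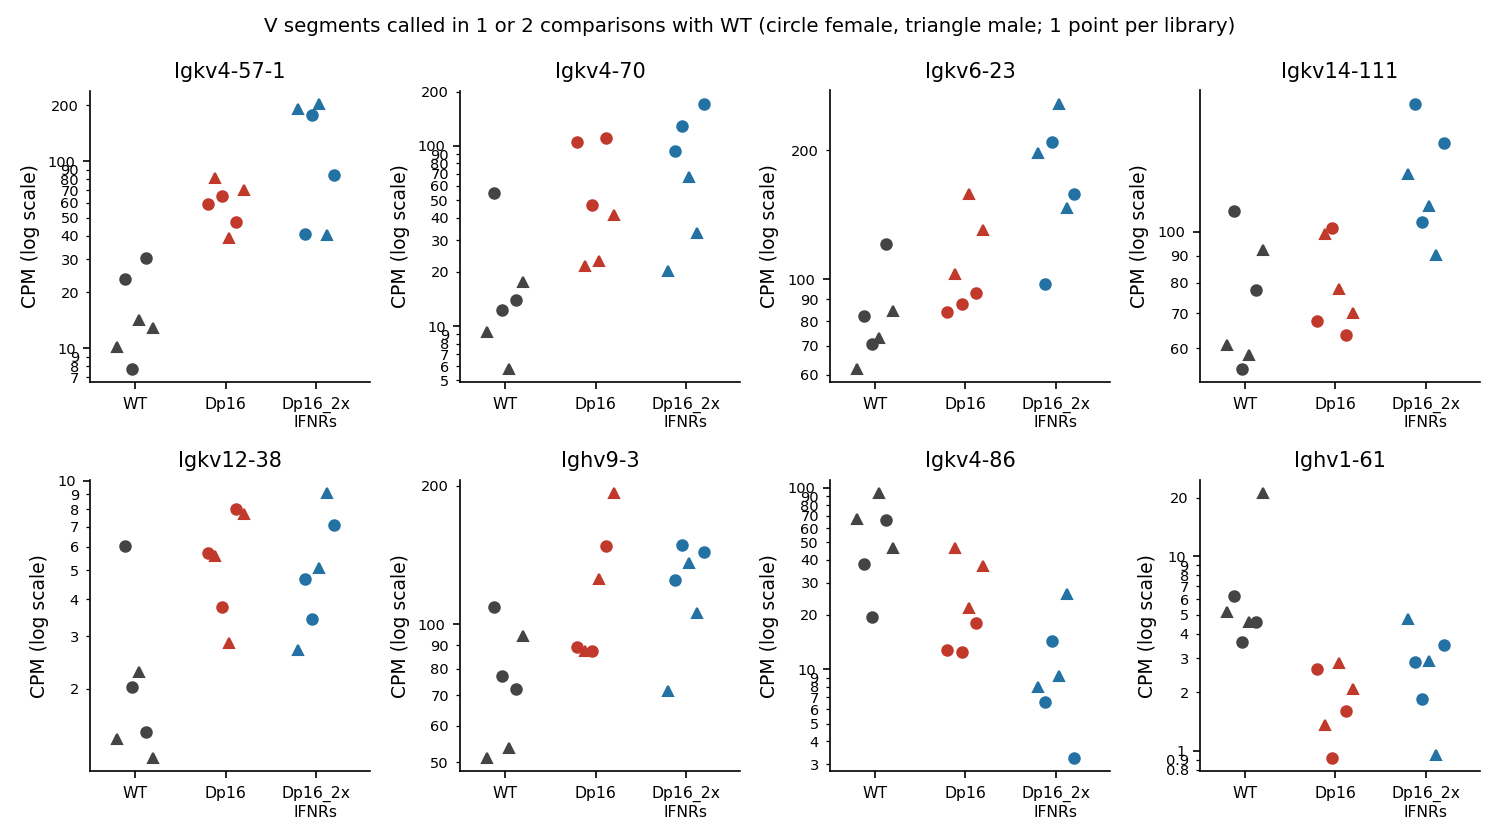
CPM (log scale) of 8 segments called in at least 1 comparison with WT, 1 point per library, circles female and triangles male. For Igkv4-57-1 the WT libraries, at 7.76 to 30.3 CPM, all lie below both duplicated genotypes, and for Ighv1-61 the WT libraries all lie above those of Dp16.

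Segments with well known antibody roles did not pass the test in any comparison. In Dp16 against WT 16.6% of all genes rose and 13.2% fell, and in Dp16_2xIFNRs 17.3% and 14.2%. The list of 11 held Ighv11-2, Igkv14-126, Ighv12-3 and Igkv4-91, used by B-1 cell antibodies to phosphatidylcholine, Ighv7-1 of the phosphorylcholine response, Ighv1-72 of the response to the hapten NP, Ighv5-2, which lies near the D segments, Igkv5-39 and the 3 lambda segments. Their median log2 fold changes from WT were -0.16 in Dp16 and 0.25 in Dp16_2xIFNRs. Ighv11-2 held 0.202% to 0.602% of heavy expression in WT (median 0.336%), 0.0901% to 0.366% (0.169%) in Dp16 and 0.0616% to 0.313% (0.191%) in Dp16_2xIFNRs. Its partner Igkv14-126 held 0.602% to 1.44% (0.944%), 0.291% to 2.80% (0.783%) and 0.42% to 3.16% (1.30%) of kappa expression. The overlap of these ranges leaves no separation of the genotypes. Ighv7-1 held 0.346% to 2.68% (0.584%), 0.235% to 0.747% (0.33%) and 0.135% to 0.626% (0.23%). Ighv1-72 held 0.659% to 1.49% (1.11%), 0.816% to 2.20% (1.61%) and 0.636% to 1.42% (1.07%).

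The constant genes, which set the antibody class, give the setting of these V reads. Ighd, the IgD constant gene of mature naive B cells, was at 609 to 1095 CPM (median 748) in WT, 341 to 537 (415.5) in Dp16 and 370 to 519 (467) in Dp16_2xIFNRs. Every WT library was above every library of the duplicated genotypes. It fell by 0.84 on the log2 scale in Dp16 (SE 0.10, edgeR adjusted p = 5.43e-06) and by 0.75 in Dp16_2xIFNRs (SE 0.10, adjusted p = 2.00e-05), and it kept both calls under each alternative. Ighm, the IgM constant gene, had log2 differences of -0.01 and 0.10 and was not called. Ighg2b, the IgG2b constant gene, was at 573 to 1915 CPM (1211), 2017 to 2451 (2228) and 897 to 3493 (2880). WT and Dp16 did not overlap. It rose by 0.98 ± 0.34 in Dp16 (edgeR adjusted p = 0.0416) and by 1.23 ± 0.34 in Dp16_2xIFNRs (adjusted p = 0.0127). The Dp16 call was lost on leaving out WT replicate 1, 4 or 5 or any 1 of the 6 Dp16 libraries (adjusted p of 0.0506 to 0.0926).

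In Dp16_2xIFNRs, Ighg1, Igha (the IgA constant gene) and Igkc (the kappa constant gene) also rose. Ighg1 rose by 2.05 ± 0.62 (edgeR adjusted p = 0.0199), and without Dp16_2xIFNRs replicate 6, described above, the difference was 1.24 and not called (adjusted p = 0.0511). With the code block it was 1.27 (adjusted p = 0.386). Igha rose by 0.98 ± 0.32 (adjusted p = 0.0325) and lost the call without WT replicate 1 or 3 or Dp16_2xIFNRs replicate 1, 3 or 6, and with the sample-number block (adjusted p = 0.109) or the code block (0.0595). Without the 3 libraries led by 1 segment the Igha difference was 0.69 (adjusted p = 0.161). Igkc rose by 0.72 ± 0.23 (adjusted p = 0.0260) and lost it without WT replicate 1, 4 or 5 or Dp16_2xIFNRs replicate 3, 4 or 5. In Dp16, Iglc3, a lambda constant gene, fell by 0.39 on the log2 scale (SE 0.12, adjusted p = 0.0182), a call lost with the code block (adjusted p = 0.0521), without the 4 libraries rich in Gm42418 reads (0.0511) and without the 3 libraries led by 1 segment (0.0743). Of 8 heavy constant genes, 1 rose and 1 fell in Dp16 (12.5% each, against 16.6% and 13.2% of all genes). In Dp16_2xIFNRs, 3 rose and 1 fell (37.5% and 12.5%, against 17.3% and 14.2%). Of 4 light constant genes, 1 fell in Dp16 and 1 rose in Dp16_2xIFNRs.

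A list of 19 genes that join V segments or diversify them after joining had 17 tested members. Of these, 5 rose and 2 fell in Dp16 (29.4% and 11.8%, against 16.6% and 13.2% of all genes). In Dp16_2xIFNRs, 5 rose and 1 fell (29.4% and 5.88%, against 17.3% and 14.2%), and the list itself was not tested against other genes. Exo1, an exonuclease of mismatch repair that acts in hypermutation and class switching, rose by 1.05 ± 0.14 (edgeR adjusted p = 3.57e-05) and 0.95 ± 0.14 (adjusted p = 7.36e-05). Every library of both duplicated genotypes was above every WT library. Polh, the polymerase that makes mutations at A and T bases of V genes, rose by 0.67 ± 0.13 (adjusted p = 0.000566) and 0.68 ± 0.13 (adjusted p = 0.000446). Xrcc6, the Ku70 end-joining protein, rose by 0.51 ± 0.08 (adjusted p = 8.63e-05) and 0.56 ± 0.08 (adjusted p = 4.41e-05). Ung (0.48 and 0.35) and Msh6 (0.25 and 0.24), which act in DNA repair, also rose in both. Prkdc, the catalytic subunit of the end-joining kinase, fell by 0.33 in each, and Vpreb3, a protein of the precursor B cell, fell by 0.50 in Dp16. Exo1, Polh and Xrcc6 kept their calls under each alternative, while Ung, Msh6, Prkdc and Vpreb3 lost theirs with the code block, and Ung in Dp16_2xIFNRs also without WT replicate 1 (adjusted p = 0.0513). Many of these genes also act in DNA repair of any dividing cell. The erythroid and neutrophil markers given below rose in both comparisons, and a relation of these genes to them was not tested.

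Cell type markers moved with genotype, where 16.6% of all genes rose and 13.2% fell in Dp16, and 17.3% and 14.2% in Dp16_2xIFNRs. All 12 B cell markers fell in both comparisons (median log2 fold changes -0.67 and -0.59). Their summed level was 4223 to 6469 CPM in WT, 2740 to 3436 in Dp16 and 2864 to 3677 in Dp16_2xIFNRs, without overlap between WT and the others. Of 15 plasma cell markers, Jchain and Tent5c rose and Irf4 and Tnfrsf13b fell in each comparison, and the list summed to 2260 to 4049, 3039 to 4010 and 3398 to 4516 CPM. All 10 erythroid markers rose in both (5844 to 19395, 20302 to 36533 and 19406 to 39607 CPM), as did all 10 neutrophil markers (441 to 2003, 2986 to 10322 and 3509 to 5773 CPM). Of 10 T cell markers, Cd8a and Cd8b1 fell in Dp16 and Cd8a in Dp16_2xIFNRs (935.6 to 1270, 921 to 1131 and 840 to 1152 CPM). No marker of these lists was at 0 in any library. The part of these shifts in the levels of the segments and constant genes was not tested, and usage shares, being taken within a chain, do not carry the total level of B lineage RNA.

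The summed levels of V segments overlapped between the genotypes for each chain. Heavy segments summed to 1341 to 3576 CPM (median 2035) in WT, 1991 to 3003 (2461) in Dp16 and 2361 to 3369 (3072) in Dp16_2xIFNRs. Kappa segments summed to 2351 to 6104 CPM (3501), 3530 to 5187 (4219) and 4120 to 6143 (5215). Lambda segments summed to 205 to 284 CPM (243), 147 to 384 (223) and 132 to 314 (292). These sums are given without a test. The ratio of kappa to heavy counts was 1.55 to 1.87 in WT, 1.504 to 1.90 in Dp16 and 1.67 to 2.09 in Dp16_2xIFNRs.

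**Figure D5:**
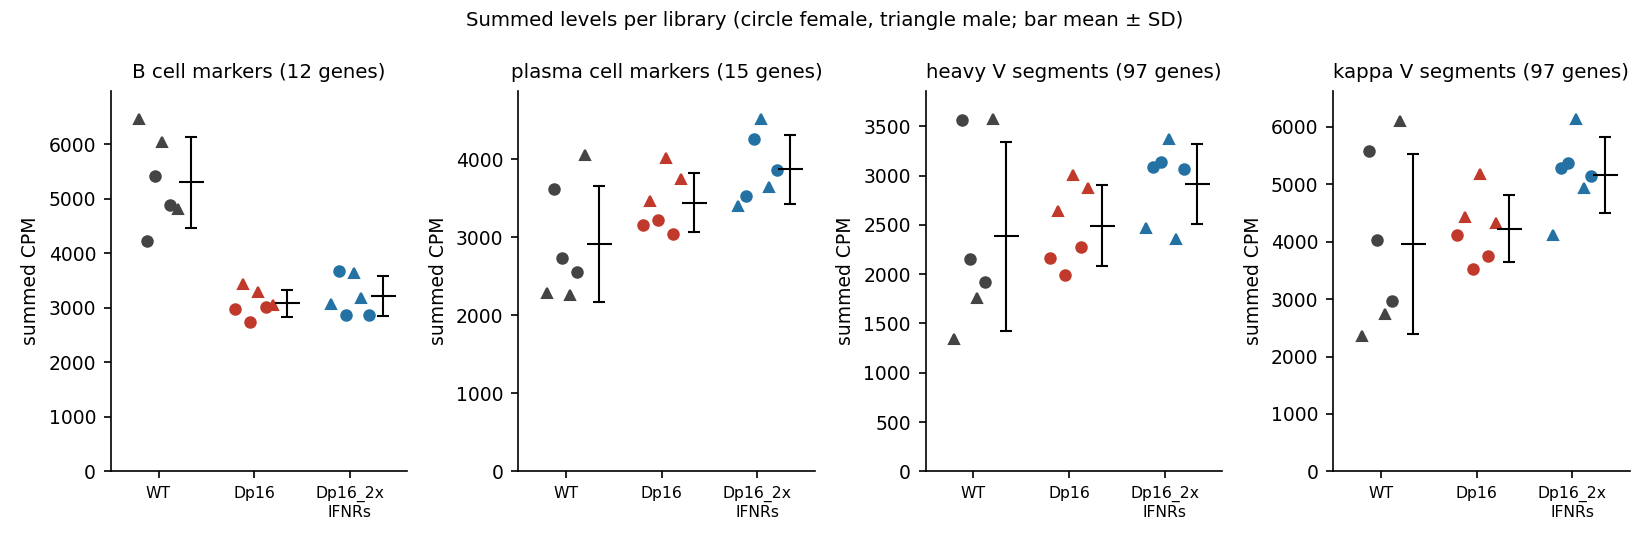
Summed CPM of 12 B cell markers, 15 plasma cell markers, 97 heavy and 97 kappa segments per library, circles female and triangles male, bars mean ± SD over 6 libraries. The B cell panel separates WT (4223 to 6469 CPM) from both duplicated genotypes, and the other 3 panels overlap.

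Diversity was set against the plasma cell markers across the 18 libraries. For heavy chains Pearson's r between the summed marker level and the effective number was -0.417 (permutation p = 0.0837, adjusted 0.167 over the 2 chains) and Spearman's rho was -0.486 (permutation p = 0.0427, adjusted 0.0854). Without the 2 libraries farthest from the median marker level, WT replicates 1 and 4, r was -0.404. Within genotypes the heavy r was -0.916 in WT (exact permutation p = 0.0278, adjusted 0.167 over 6), 0.002 in Dp16 and 0.195 in Dp16_2xIFNRs. With 6 libraries each, these values cannot show whether a relation is present or absent within a genotype. By rank, rho was -0.486 in WT (exact permutation p = 0.356), -0.143 in Dp16 and 0.486 in Dp16_2xIFNRs. For kappa chains r was -0.105 (permutation p = 0.681) and rho -0.115.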

How the data were processed

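Poly(A) RNA of 18 spleens was taken up in TRIzol, made into strand-specific libraries with a Tecan/Nugen Universal Plus mRNA kit and sequenced as paired ends on a NovaSeq, per the labels' protocols. The deposited counts are the authors' raw whole-number read counts per gene. The deposited RPKM values are those counts divided by gene length and library total, checked over 11538 genes (largest relative deviation 2.2e-15). Per the submitters' processing notes, HTSeq 0.6.1, SAMtools 1.5, HISAT2 2.1.0, FastQC 0.11.5 and bcl2fastq were used with the GRCm38 build. The strand setting and the treatment of reads with several matches are not given in the sources used here.

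Quasi-likelihood tests came from edgeR 4.0.16, fitted once to the 18 libraries (R 4.3.3; filterByExpr by genotype, TMM, genotype and sex as terms) over 18634 genes, which kept all 198 members. Calls required an adjusted p below 0.05 (Benjamini-Hochberg, over all genes). Usage shares came from RPKM within a chain, and measures were compared by two-sided exact permutation over 924 splits of 12 libraries (smallest p 0.00216), with intervals from the inverted test, in Python 3.11.15 with SciPy 1.17.1. The fit was tested on simulated data. Replicate libraries within a genotype differed by at least 144 in chi-square per degree of freedom, so none was a copy. Labels do not say more than that each library is a separate sample, and each is read here as 1 mouse. The tests set differences between genotypes against the spread between these samples. The floor of 3 counts reflects counting error alone, as no source names molecular identifiers that would separate copied reads.

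Alternatives were other scalings, DESeq2 1.42.0, limma 3.58.1 on log2 RPKM with 0.1 added, other filters and thresholds, blocks for the title numbers and for description codes shared by libraries, fits on 12 libraries, and omission of each library. Omission of the libraries led by 1 segment at over 20% or with over 4% of counts on Gm42418, which lies over ribosomal RNA sequence, was added after seeing the data. Named segments are the 5 heavy, 5 kappa and all lambda members with the highest mean usage, those that led a chain in a library, a list with known roles, and the 5 called members with the smallest p in each direction; a segment named outside this rule was chosen after its values were seen. The members and lists were chosen with earlier results of these data known. A gene of the diversification list is not reported here.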

Additional observations from a re-analysis of the deposited data

Results flagged for a closer look

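For 53 measures, segments and constant genes, the highest and lowest library of each genotype was compared with the other 5 by Dixon's ratio. Of 159 groups of 6 libraries, 34 held a library far from its 5 companions. Chance gives about 1 in 20 groups, but this count cannot be read against it: some segments were named because they led a chain in 1 library, and 1 raised segment also moves the leading share, the effective number and the family share of its library. The only constant genes included were Ighg1, Ighe and Ighg3, chosen by no stated rule, and each was flagged.

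Dp16_2xIFNRs replicate 6 stood apart most often. Its effective number of heavy segments was 35.1 (others of its genotype 47.8 to 52.2), its leading heavy segment Ighv14-4 held 22.8% (leading shares of the others 6.23% to 10.8%), its Ighv1 family share was 43.1% (53.9% to 59.9%) and Igkv8-21 held 18.4%. It also had 3147 CPM of Ighg1 and 41.9 CPM of Ighe. In WT replicate 6 the leading heavy segment, Ighv1-9, held 20.02% (others 7.02% to 10.6%), Igkv19-93 held 19.2%, Ighv1-82 held 5.08%, Ighv1-61 was at 21.2 CPM and Igkv4-61 at 25.4 CPM.

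Among other WT libraries, replicate 1 had Ighv5-6 at 7.05%, replicate 2 had Igkv12-38 at 6.02 CPM, Igkv4-70 at 54.7 CPM and Ighg3, the IgG3 constant gene, at 3911 CPM (others 310 to 525.6), and replicate 3 had Ighv12-3 at 0.25% and Igkv20-101-2 at 0.569 CPM. WT replicate 5 had Ighv1-18 at 3.84% and Ighv7-1 at 2.68%. In Dp16, replicate 1 had Ighv1-18 at 11.7% and its 5 leading heavy segments at 32.4% (others 23.5% to 26.4%), replicate 2 had Igkv20-101-2 at 2.12 CPM, replicate 3 had Igkv14-126 at 2.80%, and replicate 6 had Igkv4-61 at 71.6 CPM.

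In Dp16_2xIFNRs, replicate 1 had the lowest lambda level, 132 CPM (others 264 to 314), with Ighv1-82 at 7.04%, Ighv7-1 at 0.626% and Igkv9-120 at 3.19%. Replicate 2 had Ighv1-18 at 10.3%, replicate 3 had Ighv5-2 at 0.34% and Igkv4-55 at 6.08%, and replicate 4 had Ighv8-5 at 10.3 CPM.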

How the results depend on the processing

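The number of segments that rose in Dp16 against WT was 13, and became 5 with no filter, 23 at an adjusted p below 0.1, 7 with the code block, 24 by DESeq2, 6 by limma on log2 RPKM and 4 to 14 on leaving out 1 library. The number that fell was 2, and became 4 with upper quartile scaling, 1 with no filter, 4 at 1 CPM in 6 libraries, 5 at an adjusted p below 0.1, 1 with the code block, 5 in a fit on 12 libraries, 1 without the libraries rich in Gm42418 (WT replicate 4, Dp16 replicates 2 and 3, Dp16_2xIFNRs replicate 5), 5 by DESeq2, 5 by limma and 1 to 4 on leaving out 1 library. For Dp16_2xIFNRs against WT the 19 that rose became 12 with no filter, 29 by DESeq2 and 12 to 28 without 1 library. The 2 that fell became 1 with no filter, on 12 libraries or without the libraries led by 1 segment at over 20%, and 1 to 3 without 1 library. Between the duplicated genotypes the count stayed 0 in all 27 alternatives. The causes of these shifts were not tested. Except for upper quartile scaling, counts over all genes are not set beside them, so they are not read as particular to V segments. With upper quartile scaling the members split 11 higher and 4 lower in Dp16, and all genes 2558 and 3333 against 3091 and 2462; in Dp16_2xIFNRs all genes split 2677 and 3451 against 3217 and 2643.

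The title numbers do not pair the animals: same-numbered libraries had a mean correlation of 0.019 over 18 pairs, -0.004 for other numbers, and 4 of 18 libraries correlated best with their own number. The replicate block gave 13 higher and 2 lower in Dp16, 19 and 3 in Dp16_2xIFNRs, and 0 and 0 between the duplicated genotypes.

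No usage measure passed a test under any alternative, the lowest adjusted exact permutation p being 0.545, but 32 of 486 differences between genotypes turned sign. Without the libraries led by 1 segment, the kappa effective number turned to -1.47 (Dp16) and -2.09 (Dp16_2xIFNRs) against WT, the share of the 5 leading kappa segments to 1.58 and 1.27, and the Ighv1 share to 4.06 (Dp16_2xIFNRs against WT). In Dp16_2xIFNRs against Dp16 the same omission gave -1.57 for the leading and -0.31 for the 5 leading kappa segments, omission of the libraries rich in Gm42418 gave -0.12 and -0.21, and medians gave -2.39 and -1.79, with 1.39 for the kappa effective number and 0.072 for the lambda share. With 1 library left out, Dp16_2xIFNRs against WT ranged from -4.11 to 0.99 for the heavy effective number, -1.50 to 2.89 for the leading and -1.51 to 2.76 for the 5 leading heavy segments, -0.25 to 5.43 for the kappa effective number and -2.68 to 1.70 for the Ighv1 share. Dp16_2xIFNRs against Dp16 ranged from -1.57 to 1.03 for the leading and -0.31 to 2.89 for the 5 leading kappa segments and -0.73 to 0.20 for the lambda share. Of 458 values of named segments, 388 kept direction and call, 70 lost the call and 0 turned sign. Of 567 values of constant and diversification genes, 510 kept both, 57 lost the call and 0 turned sign. Without the libraries rich in Gm42418, Ighg2b lost both calls (adjusted p of 0.184 and 0.104), and Ighg1 (0.0901) and Igkc (0.145) lost theirs, as did Ighv8-5 (0.146) and Igkv4-61 (0.0663) in Dp16, Ighv9-3 in Dp16 (0.0502) and Dp16_2xIFNRs (0.0827), Ung (0.103) and Prkdc (0.0545) in Dp16_2xIFNRs, and Msh6 in both (0.0683 and 0.0647). Without the libraries led by 1 segment, Ighv8-5 (0.0904), Igkv14-100 (0.0772) and Vpreb3 (0.0649) lost theirs in Dp16, and Ighv1-61 (0.0865) and Prkdc (0.0736) in Dp16_2xIFNRs. With no filter, Ighv8-5 and Ighg2b lost their calls in Dp16. In Dp16_2xIFNRs Ighv1-61, Igkv12-38, Igha, Igkc and Msh6 did so, and Ighv9-3 in both. By limma on log2 RPKM, Igkv14-100 lost its call in Dp16, Ung in Dp16_2xIFNRs and Msh6 in both. Fits on 12 libraries lost Ighv1-61, Ighg1 and Igkc in Dp16_2xIFNRs. Upper quartile scaling lost Ighg2b in Dp16 and Msh6 in Dp16_2xIFNRs. A fit without the sex term lost Igkv4-70 in Dp16. Segments near 1 CPM are limited by depth.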
